A study of Mus musculus with 100 samples.

Results

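Embryoid bodies of Mll4 KI cells at day 4 of differentiation were compared with the embryonic stem cells they were grown from. The comparison rests on 4 RNA libraries, 2 of stem cells (day 0) and 2 of embryoid bodies (day 4), out of 37 RNA tables of a series of 100 samples. They were chosen by their titles, and the 2 libraries of each day come from KI clones 27 and 48. All cells carry a homozygous null Mll3 allele. KI cells have the genotype Mll3-/-;Mll4KI/KI, and the reference flox line is null for Mll3 and has floxed Mll4. Mll3 and Mll4 are older names of Kmt2c and Kmt2d, which encode enzymes that place a methyl group on lysine 4 of histone H3 at enhancers. The study, by its title, concerns the catalytic activity of these enzymes, and the labels do not spell out KI. Stem cells were kept on gelatin with LIF (leukaemia inhibitory factor) and inhibitors of MEK and GSK3, a medium known as 2i. Embryoid bodies were formed in hanging drops and then grown in suspension without LIF and with low serum. Flox has 1 library per day, shown beside the KI values, and the KI libraries of day 10 enter the fit only to estimate the spread. Each clone is 1 line, and no wild-type line was part of the comparison.

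Stem cells held in 2i and LIF resemble the naive epiblast of the blastocyst, the tissue that gives rise to the fetus. LIF acts through STAT3, the MEK inhibitor blocks FGF signalling to ERK, and the GSK3 inhibitor raises Wnt signalling through beta-catenin. When these are withdrawn and cells aggregate, they pass through a formative, post-implantation-like epiblast state, and Wnt, Nodal and BMP signals then induce the primitive streak, the source of mesoderm and endoderm.

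The 4 KI libraries held between 21.9 and 23.8 M gene-level reads each. Levels are given in CPM (counts-per-million, scaled between libraries with TMM). On this scale 3 reads, the limit that a count of 0 allows, equal 0.134 to 0.135 CPM. The 3-read limits reflect counting error alone, since PCR copies of a molecule were not told apart by molecular identifiers. Where 1 day has few reads, the standard error (SE) given with a fold change can lie below counting error and overstates the precision. The clones of 1 day correlated at 0.996 across genes in log2 CPM, yet differed beyond sampling noise, with a chi-square per degree of freedom of 6.08 on day 0 and 5.66 on day 4. Clones are separate lines, but nothing in the labels says whether cultures were repeated, so the p-values measure only the spread between these libraries. In bulk RNA, fewer cells of a type and less RNA per cell cannot be told apart.

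The 2 clones were not equivalent at every locus. Of 11471 genes with at least 5 CPM in a KI library of the 4, 13 entries were at least 4-fold apart between the clones on both days in the same direction, and 12 of them were higher in clone 27. These genes were picked after their values were seen and carry no test. Meg3, a maternally expressed imprinted long non-coding RNA of the Dlk1-Dio3 cluster on chromosome 12, had 168 CPM in clone 27 and 0.851 in clone 48 at day 0, and 296 and 0.676 at day 4. Rian, from the same cluster, had 229 and 0.269 CPM at day 0 and 350 and 0.721 at day 4. The flox libraries resembled clone 27 at both genes, with 89.6 and 199 CPM of Meg3 and 143 and 223 CPM of Rian on days 0 and 4. Mirg and Rtl1 of the cluster were also higher in clone 27 on both days, Rtl1 by less (3.21 against 0.0896 and 5.31 against 0.225 CPM), and at day 10 Rtl1 was higher in clone 48 (10.6 against 6.16 CPM). Of the 13 entries, 5 are listed on chromosome Y (Kdm5d, Zfy1, Ddx3y, Uty and Eif2s3y), and the entry without a symbol had no chromosome listed. Mir1906-1 and Mir1906-2 had the same values, so the 13 entries are not all separate loci. Ddx3y, an RNA helicase gene, stood at 81.6 and 75.8 CPM in clone 27 and at 6.94 and 4.51 in clone 48 on days 0 and 4. Peg13, an imprinted non-coding RNA of chromosome 15, went the other way, with 0.0446 and 0.045 CPM in clone 27 against 3.76 and 6.0 in clone 48.

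**Figure D1:**
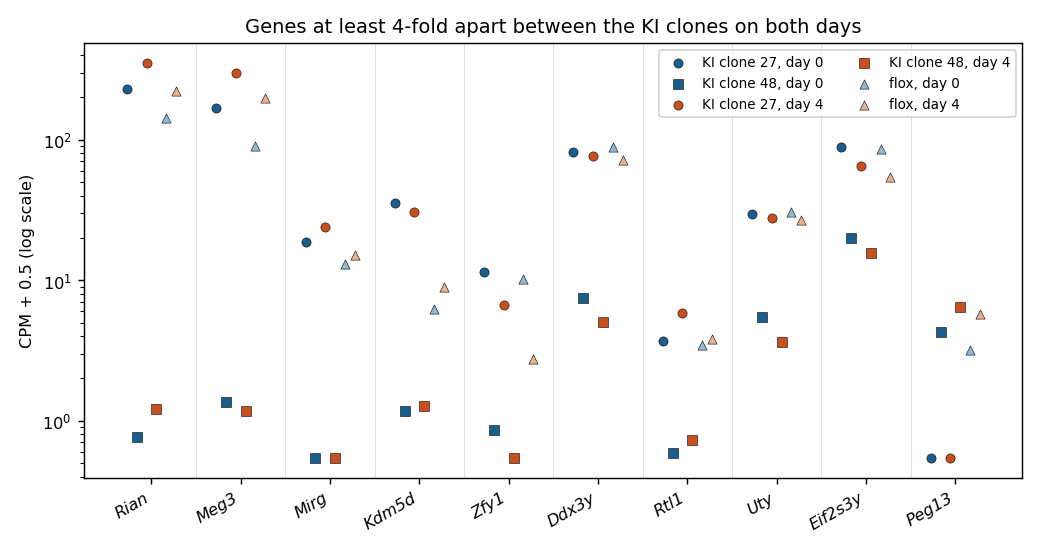
Levels in CPM plus 0.5 (log axis) of the 10 named genes that lay at least 4-fold apart between the KI clones on both days, with 1 point per library (circles clone 27, squares clone 48, triangles flox). Clone 48 lies below clone 27 and flox at 9 of them, and clone 27 lies lowest at Peg13.

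Day 4 differed from day 0 across a large share of the transcriptome. Of 15676 genes tested with edgeR's quasi-likelihood test, 4157 (26.5%) were called higher at day 4 and 3725 (23.8%) lower, at a Benjamini-Hochberg adjusted p under 0.05. A size of at least 2-fold was reached by 2550 (16.3%) that rose and 1460 (9.31%) that fell. These shares are the background against which the count of each gene list is read. The changes of the 2 clones correlated at 0.967 across genes, which are not independent replicates. Of the 4010 genes called at 2-fold, 2938 (73.3%) were 2-fold in each clone. Without either day 4 library the number called dropped to 4982 (clone 27 left out) or 5046 (clone 48 left out).

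**Figure D2:**
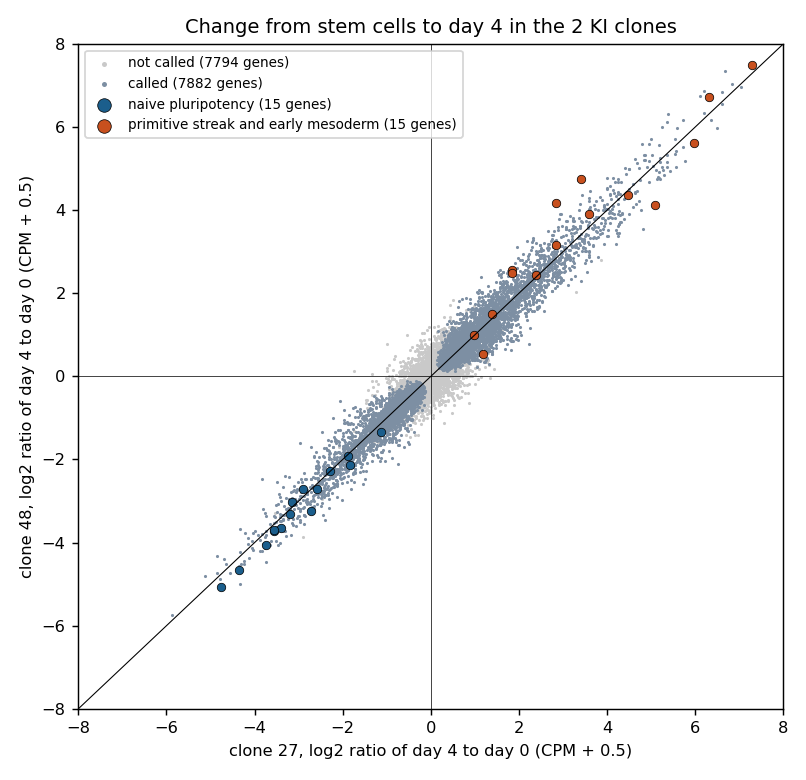
Log2 ratio of day 4 to day 0 in clone 27 (x axis) and clone 48 (y axis), with 0.5 CPM added, 1 point per gene tested. The 15 naive pluripotency genes lie in the lower left and the 15 genes of primitive streak and early mesoderm in the upper right, near the diagonal of equal change.

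Genes of the naive pluripotency list were lower at day 4 in every member measured. All 15 genes of the list fell at least 2-fold (median log2 fold change -3.26, against 0.01 over all genes tested), and their summed level went from 5030 and 5410 CPM in clones 27 and 48 at day 0 to 575 and 585 at day 4. Klf4, a zinc finger factor that sustains naive self-renewal, had 495 and 570 CPM at day 0 and 17.7 and 16.5 at day 4. It fell by 4.96 on the log2 scale (SE 0.12, edgeR adjusted p = 7.55e-07), the most of the 15. Tfcp2l1, a target of STAT3 and of GSK3 inhibition, had 1190 and 1200 CPM at day 0 and 57.7 and 47.4 at day 4 (log2 fold change -4.50 with SE 0.24, edgeR adjusted p = 4.18e-05).

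Esrrb, an orphan nuclear receptor that can stand in for Nanog, had 651 and 715 CPM at day 0 and 55.0 and 53.6 at day 4 (log2 fold change -3.65 with SE 0.30, edgeR adjusted p = 0.000288). Zfp42 (Rex1), the usual reporter gene of the naive state, had 629 and 708 CPM and then 68.7 and 70.5 (log2 fold change -3.26 with SE 0.22, edgeR adjusted p = 8.02e-05). Nr5a2, Tcl1, Fbxo15, Prdm14 and Nr0b1 fell by between 3.18 and 4.07 on the log2 scale. Nanog, the homeodomain factor of the network, fell less. Its level was 382 and 436 CPM at day 0 and 104 and 115 at day 4 (log2 fold change -1.91 with SE 0.11, edgeR adjusted p = 1.45e-05). Tbx3 fell least (log2 fold change -1.24, edgeR adjusted p = 0.0279) and lost its call without any 1 of the 4 libraries. In none of the 15 genes did the KI libraries of the 2 days overlap, but the share over all tested genes was not counted. All 7882 called genes changed in the same direction in both clones, so the separation is no evidence beyond the calls.

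**Figure D3:**
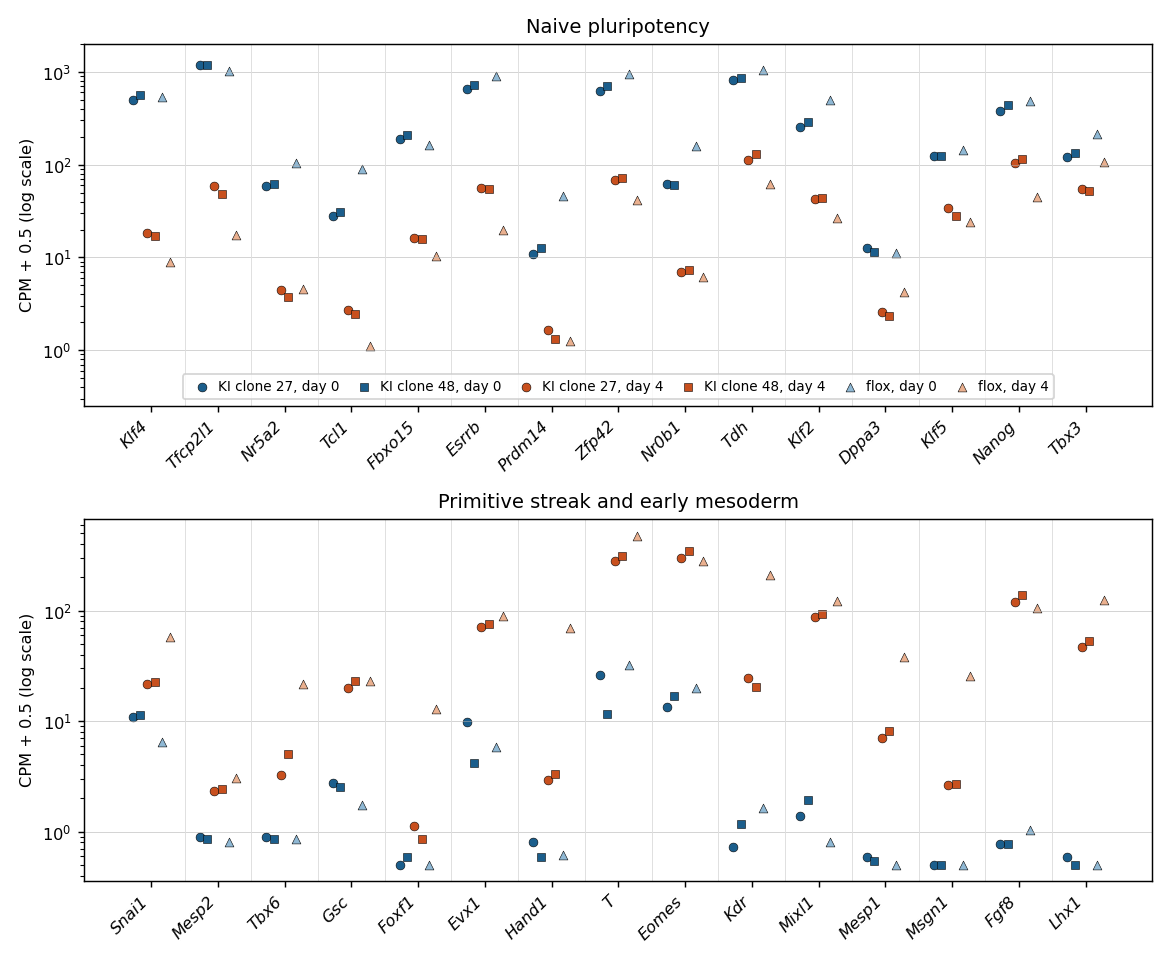
Levels in CPM plus 0.5 (log axis) of the 15 naive pluripotency genes (top) and the 15 genes of primitive streak and early mesoderm (bottom) in the 4 KI libraries and the 2 flox libraries, genes ordered by their KI change. Day 4 points of KI lie below day 0 points for every gene of the top panel and above them for every gene of the bottom panel.

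Genes shared by naive and post-implantation pluripotent cells moved in both directions, 4 higher and 5 lower of 12 tested. Pou5f1 (Oct4), the factor that all pluripotent cells need, kept a high level, with 1460 and 1520 CPM at day 0 and 941 and 1010 at day 4. Its log2 fold change of -0.62 was not called (SE 0.21, edgeR adjusted p = 0.0545), and with the clone as a block it was (adjusted p = 0.0325). Sox2, its partner, fell from 319 and 360 to 93.7 and 102 CPM (log2 fold change -1.80 with SE 0.38, edgeR adjusted p = 0.0124). Fgf4, a joint target of this pair and the FGF ligand of naive cells, fell from 246 and 276 to 58.1 and 61.7 CPM (log2 fold change -2.12 with SE 0.12, edgeR adjusted p = 1.17e-05). The 2 genes that rose at least 2-fold were Utf1 and Lin28a. Utf1, a chromatin factor of pluripotent cells, rose from 70.3 and 76.4 to 260 and 263 CPM (log2 fold change 1.83 with SE 0.16, edgeR adjusted p = 0.000163). Lin28a, which blocks maturation of let-7 microRNAs, rose from 310 and 275 to 702 and 741 CPM (log2 fold change 1.30 with SE 0.25, edgeR adjusted p = 0.00677). With 1 of the 4 libraries left out, 1 to 2 genes of this list were called higher and 3 to 4 lower, with Sall4, Zfp281 and Dppa2 lost in all 4 fits, Sox2 in 2 and Lin28a in 1.

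Genes of the formative and post-implantation epiblast were higher at day 4, with 13 of 14 called higher, 9 of them at 2-fold (median log2 fold change 2.39). Fgf5, the classical marker of this state, had 0.0893 and 0.0896 CPM at day 0, at most 2 reads in a library and below the limit of 3. At day 4 it had 57.2 and 67.7 CPM (log2 fold change 9.36, edgeR adjusted p = 7.55e-07). Pou3f1 (Oct6), a POU factor of epiblast and neural progenitors, rose from 2.77 and 3.63 to 153 and 167 CPM (log2 fold change 5.64 with SE 0.14, edgeR adjusted p = 7.55e-07). Otx2, which redirects Oct4 to post-implantation enhancers, rose from 12.3 and 10.5 to 93.3 and 102 CPM (log2 fold change 3.10 with SE 0.28, edgeR adjusted p = 0.000339). Cldn6, a tight junction protein of epiblast epithelium, rose from 9.91 and 7.39 to 158 and 135 CPM, and Sox4 from 23.9 and 24.1 to 152 and 160. Zic2 was called by a narrow margin (edgeR adjusted p = 0.0462) and lost the call without any 1 library, and Foxd3 lost it in 3 of the 4 fits. The member that fell was Nkx1-2, with 73.2 and 62.9 CPM at day 0 and 15.9 and 17.4 at day 4 (log2 fold change -2.03 with SE 0.13, edgeR adjusted p = 2.05e-05).

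Genes of the LIF and STAT3 list, which holds targets and members of the pathway, were mostly lower in the culture without LIF. Of 12, 8 were lower and 3 higher, with fewer lower in some fits with 1 library left out. Socs3, the feedback inhibitor of this pathway and a direct STAT3 target, had 133 and 164 CPM at day 0 and 13.1 and 12.1 at day 4, a fall by 3.56 on the log2 scale (SE 0.17, edgeR adjusted p = 1.20e-05). Bcl3 fell from 44.6 and 54.0 to 3.56 and 2.75 CPM (log2 fold change -3.96 with SE 0.31, edgeR adjusted p = 0.000145) and Stat3 itself from 151 and 150 to 41.3 and 35.2 (log2 fold change -1.98 with SE 0.10, edgeR adjusted p = 8.08e-06). The receptor genes Lifr and Il6st fell by 0.83 and 0.36. Junb and Pim1, which other pathways also control, rose by 1.51 and 1.07 on the log2 scale, and Jak1, a kinase of the pathway, was also called higher. Of the 4 fits with 1 library left out, Pim3, called lower, lost the call in 3, Il6st and Sbno2 each in 2 and Pim1 in 1. The Socs3 promoter is printed because Socs3 is the defining feedback target of the list. Over 11953 tested genes with a promoter in the RefSeq table, 7.04% held the STAT site TTCNNNGAA in the 250 bases before the start on either strand, against 2 of the 12 in the list, Socs3 and Sbno2. The match is a description of the letters and not a test of binding. Capitals mark it in the 240 bases before the start of Socs3 (RefSeq, GRCm38.p6, chr11:117969367-117969606, minus strand).
Socs3: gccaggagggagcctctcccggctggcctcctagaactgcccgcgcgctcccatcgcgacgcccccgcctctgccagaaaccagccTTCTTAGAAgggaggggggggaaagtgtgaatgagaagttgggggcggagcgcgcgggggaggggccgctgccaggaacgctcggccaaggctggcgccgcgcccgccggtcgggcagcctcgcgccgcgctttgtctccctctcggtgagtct

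ERK feedback and immediate early genes, which are induced downstream of MEK, were higher at day 4, with 12 of 15 called higher and 1 lower (median log2 fold change 2.69). Dusp6, a phosphatase that inactivates ERK and is induced by it, rose from 8.84 and 8.06 to 176 and 218 CPM (log2 fold change 4.54 with SE 0.16, edgeR adjusted p = 2.59e-06). Dusp4 rose from 1.65 and 1.52 to 78.8 and 76.6 CPM (log2 fold change 5.61 with SE 0.17, edgeR adjusted p = 1.42e-06), and Egr1, an immediate early transcription factor, from 0.759 and 1.07 to 45.1 and 42.7 (log2 fold change 5.57 with SE 0.24, edgeR adjusted p = 7.59e-06). Spry4, an inhibitor of receptor tyrosine kinase signalling, rose from 2.90 and 4.12 to 68.1 and 70.5 CPM (log2 fold change 4.30 with SE 0.25, edgeR adjusted p = 2.85e-05). The ETS factor genes parted: Etv4 rose by 4.10 and Etv5 fell by 0.90, from 313 and 361 to 176 and 184 CPM. Spred2 and Ier3 were not called, with log2 fold changes of 0.22 and 0.38.

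FGF ligand genes moved in both directions. Fgf8, the ligand that mesoderm cells need to leave the streak, had 0.268 and 0.269 CPM at day 0, at most 6 reads in a library. At day 4 it had 120 and 139 CPM (log2 fold change 8.89, edgeR adjusted p = 4.53e-07). Fgf17, of the same subfamily, rose from 1.52 and 2.33 to 19.2 and 31.0 CPM (log2 fold change 3.70), and Fgf10 and Fgf15 rose by 2.91 and 4.75, while Fgf4 fell. Of the receptors, Fgfr2 rose by 1.68 on the log2 scale and Fgfr1 by 0.32, a call lost in 3 of the 4 fits with 1 library left out. Fgfr3 rose from 0.0 and 0.179 to 1.76 and 1.71 CPM (log2 fold change 4.20 with SE 0.59, edgeR adjusted p = 0.00124), and Fgfr4 was not called at 1.25 and 1.57 CPM against 1.26 and 1.26. In all, 8 of 11 ligand and receptor genes tested were called higher and 1 lower.

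Wnt ligand genes were higher in 9 of 10 tested (median log2 fold change 3.87). Wnt3, the ligand that mouse embryos need to form a streak, rose from 2.14 and 1.21 to 83.5 and 88.9 CPM (log2 fold change 5.68 with SE 0.24, edgeR adjusted p = 5.05e-06). Wnt5a, a ligand of the non-canonical branch that guides axis extension, rose from 0.312 and 0.493 to 10.4 and 9.42 CPM (log2 fold change 4.60), and Wnt6 from 1.83 and 0.851 to 28.1 and 22.4 (log2 fold change 4.23). Wnt4 had 1 read over both stem cell libraries and 283 at day 4, a ratio of 285 (95% counting interval 50.8 to 11300). Wnt8a was not called, at 10.0 and 6.45 CPM on day 0 and 7.34 and 8.79 on day 4. With 1 of the 4 libraries left out, 6 of the 9 calls were made, and Wnt3a, Wnt5b and Wnt11 were lost each time.

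Genes that Wnt signalling induces did not share 1 direction, 5 higher and 2 lower of 13 tested. The stem cell medium of day 0 contained a GSK3 inhibitor, which activates this pathway. Axin2, the universal feedback target, had 111 and 91.1 CPM at day 0 and 72.5 and 68.8 at day 4 and was not called (log2 fold change -0.51, edgeR adjusted p = 0.0704; with the clone as a block, adjusted p = 0.0162). Sp5, a repressor that limits Wnt output, had 113 and 72.5 and then 140 and 143 CPM (log2 fold change 0.61, edgeR adjusted p = 0.0911; with the block, adjusted p = 0.017). Dkk1, a secreted antagonist, rose from 0.714 and 0.448 to 18.8 and 21.4 CPM (log2 fold change 5.10 with SE 0.52, edgeR adjusted p = 0.000563), and Lef1, a nuclear effector, from 6.61 and 3.54 to 34.8 and 38.9 (log2 fold change 2.86). Notum, an enzyme that inactivates Wnt ligands, fell from 36.4 and 44.6 to 3.29 and 2.66 CPM (log2 fold change -3.76 with SE 0.21, edgeR adjusted p = 1.10e-05). Cdx1 fell from 72.6 and 52.7 to 6.44 and 6.13 (log2 fold change -3.32 with SE 0.24, edgeR adjusted p = 7.30e-05).

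The primitive streak and early mesoderm list was higher throughout. All 15 genes were called higher, each at 2-fold (14 to 15 called with 1 library left out, the lost call being Foxf1), with a median log2 fold change of 4.00 in the fit and of 2.85 and 3.91 in clones 27 and 48 on the log2(CPM + 0.5) scale, which understates low genes. Their summed level was 63.7 and 47.5 CPM at day 0 and 989 and 1110 at day 4. T (Brachyury), the T-box factor of nascent mesoderm, had 25.9 CPM in clone 27 and 11.1 in clone 48 at day 0 and 282 and 311 at day 4 (log2 fold change 4.00 with SE 0.39, edgeR adjusted p = 0.000722). The rise of T was 3.42 in clone 27 and 4.74 in clone 48 on the log2(CPM + 0.5) scale, since clone 27 started higher and both clones reached similar levels. Evx1 and its antisense transcript Evx1os showed the same order, with Evx1 at 9.33 and 3.72 CPM on day 0 and 70.6 and 75.7 on day 4, though reads of overlapping antisense genes are not separable without strand.

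Eomes, the T-box factor of streak, endoderm and trophoblast, rose from 13.0 and 16.5 to 301 and 350 CPM (log2 fold change 4.46 with SE 0.16, edgeR adjusted p = 2.44e-06). Mixl1, a homeobox gene of streak, rose from 0.893 and 1.43 to 86.6 and 93.6 CPM (log2 fold change 6.27 with SE 0.25, edgeR adjusted p = 5.02e-06). Lhx1, a LIM factor of anterior streak and its derivatives, had 2 reads over both stem cell libraries and 2195 at day 4, a ratio of 1110 (95% counting interval 306 to 9140). Kdr, the VEGF receptor of blood and vessel precursors, rose from 0.223 and 0.672 to 24.2 and 19.9 CPM (log2 fold change 5.61 with SE 0.27, edgeR adjusted p = 1.09e-05).

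Genes of later or more lateral and paraxial mesoderm rose from very low to low levels. Mesp1, a marker of the first cardiac precursors, had 3 reads over both day 0 libraries and 317 at day 4 (6.57 and 7.71 CPM), a ratio of 106 (95% counting interval 36.1 to 519). Msgn1, of presomitic mesoderm, had no read at day 0 and 2.12 and 2.21 CPM at day 4, at least 32.2-fold higher than the 3-read limit over both libraries. Hand1, of extraembryonic and lateral mesoderm, reached 2.43 and 2.84 CPM and Tbx6 2.75 and 4.51. Foxf1 stayed under 1 CPM, at 0.63 and 0.361, and lost its call in 2 of the 4 fits with 1 library left out.

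The promoters of T and Sp5 are shown because their genes are textbook targets of TCF factors, which carry the beta-catenin signal, and moved differently here. The 6-letter TCF site CTTTGA, searched in 250 bases on both strands, occurred before 12.9% of tested genes with a promoter, in 3 of 11 streak genes (27.3%; T, Mesp1 and Msgn1) and in 4 of 8 Wnt targets (50.0%; Lef1, Dkk1, Sp5 and Sp8). Capitals mark the matches in the 240 bases before each start (RefSeq, GRCm38.p6; T at chr17:8434183-8434422, plus strand, with the match read on the opposite strand, and Sp5 at chr2:70474683-70474922, plus strand).
T: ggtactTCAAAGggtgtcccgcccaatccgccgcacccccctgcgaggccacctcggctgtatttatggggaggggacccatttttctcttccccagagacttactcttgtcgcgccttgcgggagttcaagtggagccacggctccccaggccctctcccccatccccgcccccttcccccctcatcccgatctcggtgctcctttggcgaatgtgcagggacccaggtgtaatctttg
Sp5: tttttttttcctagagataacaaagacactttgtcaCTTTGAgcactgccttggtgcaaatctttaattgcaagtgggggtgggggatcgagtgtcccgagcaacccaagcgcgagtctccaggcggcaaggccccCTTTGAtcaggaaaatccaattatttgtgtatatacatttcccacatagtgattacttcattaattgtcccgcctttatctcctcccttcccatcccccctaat

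In the Nodal pathway, which patterns the streak with Wnt, 7 of 14 tested genes were higher and 4 lower (2 to 3 lower with 1 library left out). Nodal itself, the ligand, had 121 and 115 CPM at day 0 and 103 and 105 at day 4 and was not called (log2 fold change -0.18, edgeR adjusted p = 0.13). Lefty2, a secreted Nodal antagonist, rose from 83.3 and 102 to 158 and 166 CPM (log2 fold change 0.81 with SE 0.14, edgeR adjusted p = 0.00307), and Lefty1 was not called. Among ligand-processing and ligand genes, Furin rose by 0.94, Pcsk6 fell by 2.05 and Gdf3 fell by 1.36. Cer1, an antagonist of anterior visceral and definitive endoderm, had 1 read in the 4 KI libraries and was not tested, and it stood at 13.5 CPM in flox at day 4.

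BMP ligands and the targets of BMP signalling were higher in 9 of 14 tested and lower in 2 (1 to 2 lower with 1 library left out). Bmp4, needed for mesoderm, rose from 5.62 and 4.79 to 18.8 and 15.7 CPM (log2 fold change 1.73 with SE 0.28, edgeR adjusted p = 0.00295). Msx1 and Msx2, homeobox targets, rose by 5.36 and 4.63, with Msx1 at 1.03 and 0.537 CPM on day 0 and 31.9 and 33.0 on day 4. Id1 rose from 5.40 and 4.30 to 22.0 and 20.4 CPM (log2 fold change 2.12), and Id3 was not called. Nog, a BMP antagonist, rose from 0.223 and 0.224 to 10.4 and 9.60 CPM (log2 fold change 5.45 with SE 0.28, edgeR adjusted p = 7.29e-06). Bmp7 and Id4 fell by 0.72 and 1.00, and Id4 lost its call in 3 of the 4 fits with 1 library left out.

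Several endoderm regulators rose, and genes for secreted products of visceral endoderm differed among themselves. The extraembryonic endoderm list had 12 higher and 3 lower of 23 (median log2 fold change 1.40), and its summed level was 995 and 1030 CPM at day 0 and 1350 and 1210 at day 4. Gata6, the master factor of primitive endoderm, rose from 0.491 and 0.806 to 35.6 and 38.9 CPM (log2 fold change 5.83 with SE 0.18, edgeR adjusted p = 1.45e-06). Gata4 rose from 4.60 and 4.52 to 38.7 and 35.1 CPM (log2 fold change 3.01 with SE 0.15, edgeR adjusted p = 6.05e-06), and Sox17 from 0.982 and 0.403 to 17.6 and 13.4 (log2 fold change 4.47). Foxa2, a pioneer factor of endoderm and node, rose from 0.357 and 0.493 to 8.73 and 9.33 CPM (log2 fold change 4.39 with SE 0.20, edgeR adjusted p = 4.57e-06). The plasma proteins of visceral endoderm, Afp, Ttr and Apoa1, had at most 0.312 CPM in any of the 4 libraries and were not called. Other secreted products did change. Rbp4, a retinol carrier, rose from 0.134 and 0.224 to 1.17 and 1.58 CPM (log2 fold change 2.90) and Apob from 0.312 and 0.761 to 1.22 and 1.4 (log2 fold change 1.28, a call lost in 3 of the 4 fits with 1 library left out), and Apoe fell from 763 and 750 to 474 and 470 (log2 fold change -0.68). Hnf4a had at most 0.586 CPM. Sox7, a marker of parietal endoderm, fell from 5.76 and 4.52 to 1.31 and 1.31 CPM (log2 fold change -1.97). Gata4, Gata6 and Sox17 are not specific to extraembryonic endoderm, and of the definitive endoderm list 4 of 7 tested genes were higher and 1, Hhex, lower (0 to 1 lower with 1 library left out). Hhex had 6.2 and 6.27 CPM on day 0 and 4.19 and 4.69 on day 4 (log2 fold change -0.49, edgeR adjusted p = 0.0382), a call lost without any 1 of the 4 libraries, and Cxcr4, a chemokine receptor, rose from 2.14 and 1.79 to 14.7 and 12.3 CPM (log2 fold change 2.77).

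Trophoblast markers moved both ways, regulators included. In the list, 8 of 14 tested genes were higher and 3 lower (7 to 8 higher and 2 to 3 lower with 1 library left out), and the summed level was 206 and 211 CPM at day 0 and 1010 and 947 at day 4, of which Eomes, Krt8, Krt18 and Krt19 made up most. Krt18, a keratin of simple epithelia, rose from 8.35 and 6.63 to 200 and 162 CPM (log2 fold change 4.60 with SE 0.33, edgeR adjusted p = 0.000154), and Krt8 from 61.7 and 51.5 to 346 and 274 (log2 fold change 2.45), while Krt7 was not called. Gata3, a trophoblast regulator, rose from 0.268 and 0.179 to 4.14 and 3.34 CPM (log2 fold change 4.03 with SE 0.44, edgeR adjusted p = 0.000322). Tfap2c, a trophoblast and germ line factor, fell from 61.9 and 71.6 to 14.6 and 18.3 CPM (log2 fold change -2.02). Ascl2 and Tead4 fell by 1.33 and 1.18. Elf5, a defining factor of trophoblast stem cells, had 1 read in the 4 libraries and was not tested. Cdx2, which marks trophoblast and also posterior mesoderm, rose from 3.93 and 2.42 to 8.73 and 11.1 CPM (log2 fold change 1.64). Ascl2 and Cdx2 each lost the call in 2 of the 4 fits with 1 library left out.

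Neural markers were mixed. Of 10 tested neural progenitor genes 5 were higher and 2 lower, and the summed level of 105 and 119 CPM at day 0 became 475 and 496. Nes, an intermediate filament gene not limited to neural cells, made up most of the sum at day 4 only, with 15.8 and 21.1 CPM at day 0 and 246 and 250 at day 4 (log2 fold change 3.75 with SE 0.15, edgeR adjusted p = 3.02e-06). Sox1, the defining neural plate gene, had 6.56 and 8.24 CPM at day 0 and 3.15 and 4.55 at day 4, and Pax6 stayed at 1.47 to 2.84 CPM and was not called. The calls of Sox1 and Olig2, both lower, were lost without any 1 of the 4 libraries. Of 8 tested neuronal genes, 3 were higher and 3 lower. Stmn2, a tubulin regulator of neurons, fell from 240 and 266 to 46.2 and 39.9 CPM (log2 fold change -2.55 with SE 0.10, edgeR adjusted p = 2.87e-06), and Neurog2 had at most 0.135 CPM.

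The 10 heart genes summed to 11.2 and 8.51 CPM at day 0 and 28.8 and 27 at day 4, with 6 higher and 2 lower (1 to 2 lower with 1 library left out). Actc1, an actin of early heart and muscle, rose from 0.223 and 0.134 to 6.26 and 8.07 CPM (log2 fold change 5.28 with SE 0.39, edgeR adjusted p = 4.36e-05), while Tnnt2, a cardiac troponin, was below 1 CPM in all 4. In blood and endothelium 3 of 10 were higher and 2 lower, near the 26.5% and 23.8% of all tested genes, which is no result about the list. Etv2, the inducer of the haemangiogenic lineage, rose from 1.03 and 0.94 to 4.59 and 5.37 CPM (log2 fold change 2.33) and Runx1 from 1.87 and 1.97 to 8.91 and 8.21 (log2 fold change 2.15). The embryonic globins Hbb-bh1 and Hba-x had at most 0.405 CPM. Pecam1, which is also expressed in naive stem cells, fell from 97.7 and 109 to 12.0 and 11.1 CPM (log2 fold change -3.16 with SE 0.11, edgeR adjusted p = 1.70e-06). The mesenchymal list summed to at most 27.7 CPM in a library of day 0 and at most 145 in one of day 4, and both day 4 sums were above both day 0 sums. Of its genes, Acta2 rose from 1.87 and 1.75 to 44.6 and 22.9 CPM (log2 fold change 4.22) and Twist1 from 2.86 and 2.82 to 16.5 and 21.1 (log2 fold change 2.72), with 4 of 10 higher and none lower (2 to 3 higher with 1 library left out).

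Retinoic acid is degraded by Cyp26a1, which protects the early streak region from it. Cyp26a1 rose from 0.134 and 0.179 CPM, at most 4 reads in a library, to 61.7 and 63.0 CPM (log2 fold change 8.59, edgeR adjusted p = 5.52e-07). Aldh1a2, the enzyme that makes retinoic acid in the embryo, stayed at 1.25 and 0.94 and then 0.99 and 0.857 CPM and was not called. In the whole list of 13 tested genes, 7 were higher and 3 lower (1 to 3 lower with 1 library left out). Hox genes, which mark position along the body axis, were at low levels, with 6 of 12 tested higher and 1 lower. Hoxb1, an early streak Hox gene, rose from 0.179 and 0.0896 to 2.61 and 3.88 CPM (log2 fold change 4.54), and Hoxb3 had 2 reads at day 0 and 88 at day 4, a ratio of 44.3 (95% counting interval 11.9 to 372). Hoxb5, Hoxb6 and Hoxb8 stayed at or below 0.36 CPM. Hoxc4 fell from 4.2 and 3.49 to 0.045 and 0.135 CPM (log2 fold change -5.33 with SE 0.46, edgeR adjusted p = 8.66e-05).

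Of 9 tested germ cell genes 1 fell, Tex19.1, from 181 and 163 to 67.8 and 68.2 CPM (log2 fold change -1.34 with SE 0.09, edgeR adjusted p = 2.78e-05), and the others were not called. With the 4 KI libraries alone, 2 genes of the list were called lower. None of the 6 measured genes of the 2-cell-like state passed the filter. Zscan4c, Zscan4d and Zscan4f had 0.759 to 1.70 CPM in clone 27 at day 0 and 0.0448 in clone 48, and at most 0.18 in either clone at day 4.

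The targeted genes kept their RNA. Kmt2c (Mll3) had 37.8 and 36.0 CPM at day 0 and 33.8 and 34.7 at day 4 and was not called (log2 fold change -0.11, edgeR adjusted p = 0.507). Kmt2d (Mll4) had 245 and 259 and then 329 and 312 CPM, a log2 fold change of 0.35 (SE 0.09, edgeR adjusted p = 0.0146) that lost its call without any 1 of the 4 libraries. Counts over a whole transcript do not show whether a deleted exon or an altered codon is present, so these levels check neither allele. Of 16 genes for H3K4 methyltransferases, their subunits and demethylases, 2 were higher and 8 lower, mostly by small amounts (0 to 1 higher and 5 to 8 lower with 1 library left out). Rbbp5, a core subunit of all these methyltransferase complexes, fell from 113 and 121 to 57.5 and 57.5 CPM (log2 fold change -1.03 with SE 0.09, edgeR adjusted p = 9.51e-05), the only one of the 16 past 2-fold, and its partners Wdr5 and Ash2l fell by 0.90 and 0.79. Among 15 Polycomb genes 2 were higher and 7 lower. Eed, a core subunit of the H3K27 methyltransferase complex, fell from 191 and 200 to 106 and 111 CPM (log2 fold change -0.84), and the catalytic subunit gene Ezh2 was not called.

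DNA methylation enzymes moved both ways, with 4 higher and 4 lower of 9. The de novo methyltransferase Dnmt3b rose from 149 and 183 to 1300 and 1360 CPM (log2 fold change 2.99 with SE 0.12, edgeR adjusted p = 2.94e-06) and Dnmt3a from 220 and 183 to 609 and 606 (log2 fold change 1.59 with SE 0.13, edgeR adjusted p = 8.70e-05). The maintenance pair Dnmt1 and Uhrf1 fell by 0.37 and 0.55, and Dnmt1 lost its call in 1 of the 4 fits with 1 library left out. Of the TET enzymes, which oxidise methylcytosine, Tet2 fell from 82.2 and 118 to 10.7 and 9.56 CPM (log2 fold change -3.30 with SE 0.20, edgeR adjusted p = 3.77e-05), Tet1 fell by 0.90 and Tet3 rose by 1.77.

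Metabolic genes were lower at day 4 more often than higher, mostly by less than 2-fold. Of 13 respiratory chain genes 11 were lower and none higher (median log2 fold change -0.41, 7 to 10 lower with 1 library left out), and Cox5a, a subunit of cytochrome c oxidase, fell from 239 and 263 to 121 and 125 CPM (log2 fold change -1.03 with SE 0.08, edgeR adjusted p = 6.33e-05). Glycolysis had 8 of 17 lower and 1 higher. Hk1, a hexokinase, fell from 258 and 264 to 38.6 and 32.6 CPM (log2 fold change -2.87 with SE 0.18, edgeR adjusted p = 3.44e-05) and Pfkp, a phosphofructokinase, from 282 and 329 to 44.9 and 40.6 (log2 fold change -2.84 with SE 0.11, edgeR adjusted p = 2.51e-06), while Eno1, Pkm, Ldha and Tpi1 were within 0.14 of their day 0 level on the log2 scale and not called. Slc2a1, the glucose transporter GLUT1, rose from 292 and 358 to 524 and 567 CPM (log2 fold change 0.75). Tdh, the threonine dehydrogenase on which mouse stem cells depend, is in the naive list and fell by 2.81. The hypoxia list had 7 higher and 4 lower of 16, and Kdm3a in it fell by 1.56. With 1 library left out, glycolysis had 4 to 6 lower and the hypoxia list 2 to 6 higher and 2 to 3 lower.

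Cholesterol synthesis had 12 of 20 genes lower and 1 higher (median log2 fold change -0.70), but its calls were thin. With any 1 of the 4 libraries left out 4 to 5 stayed lower and none higher. Among those called each time, Fdft1, which makes squalene, fell from 287 and 321 to 125 and 127 CPM (log2 fold change -1.27 with SE 0.19, edgeR adjusted p = 0.00209). Ebp fell from 61.1 and 56.3 to 26.4 and 27.7 CPM (log2 fold change -1.12 with SE 0.10, edgeR adjusted p = 0.000109) and Msmo1 from 162 and 168 to 87.4 and 81.2 (log2 fold change -0.97). In flox the median log2 ratio of the list was 0.09. Of 14 genes of amino acid supply and the ATF4 response, 1 was called: Asns, asparagine synthetase, fell from 674 and 659 to 199 and 198 CPM (log2 fold change -1.75 with SE 0.15, edgeR adjusted p = 0.000116). The count depended on the setting, with 2 higher and 2 lower in DESeq2, and 4 higher and 5 lower with the 4 KI libraries alone.

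The metallothioneins Mt1 and Mt2, neighbouring genes on chromosome 8 whose proteins bind zinc and copper, were among the largest losses in CPM. Mt1 fell from 947 and 1050 to 232 and 241 CPM (log2 fold change -2.08 with SE 0.10, edgeR adjusted p = 4.84e-06) and Mt2 from 982 and 1070 to 207 and 227 (log2 fold change -2.24 with SE 0.13, edgeR adjusted p = 1.76e-05). In flox they went from 567 to 104 and from 569 to 109 CPM. Their promoters are shown side by side since the genes moved together and metal response elements are the textbook switch of both. The element, searched as TGCACNC or TGCGCNC on both strands in 250 bases, occurred before 33.7% of tested genes, so its presence is common. Capitals mark 1 match before Mt1 (chr8:94178849-94179088) and 3 before Mt2 (chr8:94172378-94172617), both on the plus strand (RefSeq, GRCm38.p6, 240 bases before the start).
Mt1: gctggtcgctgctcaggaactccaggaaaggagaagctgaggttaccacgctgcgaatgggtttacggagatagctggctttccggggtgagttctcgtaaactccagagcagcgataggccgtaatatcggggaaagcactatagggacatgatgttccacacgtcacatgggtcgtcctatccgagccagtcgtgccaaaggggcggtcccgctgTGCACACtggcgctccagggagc
Mt2: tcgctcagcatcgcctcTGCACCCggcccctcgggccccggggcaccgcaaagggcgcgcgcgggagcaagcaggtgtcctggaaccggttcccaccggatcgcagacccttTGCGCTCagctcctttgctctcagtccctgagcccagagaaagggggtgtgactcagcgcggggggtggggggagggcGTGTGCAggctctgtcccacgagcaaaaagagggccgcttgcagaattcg

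Of 15 cell cycle genes 4 were higher and 3 lower, near the 26.5% and 23.8% of all tested genes, which is no result about the list. Top2a, Ccnb1, Ccna2 and Mcm2 were not called, with log2 fold changes between -0.12 and 0.03. Mki67, the usual marker of cycling cells, rose from 392 and 366 to 575 and 548 CPM (log2 fold change 0.57 with SE 0.09, edgeR adjusted p = 0.00205), and Ccne1, a G1 cyclin, from 134 and 144 to 189 and 191 (log2 fold change 0.45). Ccnd2, a D-type cyclin, rose from 5.89 and 6.36 to 69.0 and 89.9 CPM (log2 fold change 3.70 with SE 0.15, edgeR adjusted p = 3.47e-06), while Ccnd3 fell by 0.99 and Ccnd1 was not called. Of 14 p53 genes, 10 were lower and 3 higher (6 to 8 lower with 1 library left out). Cdkn1a, the p21 inhibitor of cyclin kinases, fell from 541 and 519 to 149 and 153 CPM (log2 fold change -1.81 with SE 0.08, edgeR adjusted p = 4.50e-06). Pmaip1 (Noxa), a pro-apoptotic target, rose from 51.3 and 34.6 to 229 and 224 CPM (log2 fold change 2.40 with SE 0.18, edgeR adjusted p = 8.99e-05), and Perp rose by 3.16.

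Genes of cell adhesion and of the transition from epithelium to mesenchyme were higher in 11 of 14 and lower in 2. Cdh2 (N-cadherin) rose from 4.15 and 4.07 to 124 and 120 CPM (log2 fold change 4.89 with SE 0.09, edgeR adjusted p = 4.53e-07), and Cdh1 (E-cadherin) fell from 728 and 743 to 513 and 475 (log2 fold change -0.57 with SE 0.10, edgeR adjusted p = 0.00234). Epithelial genes rose as well, Epcam from 59.6 and 38.8 to 224 and 215 CPM (log2 fold change 2.16) and Cldn7 by 1.81. Snai1, a repressor of Cdh1, rose from 10.5 and 10.8 to 21.4 and 22.1 CPM (log2 fold change 1.03). Fn1, fibronectin, was not called at 1570 and 1650 CPM on day 0 and 1890 and 1580 on day 4. In the basement membrane list 5 of 12 were higher (3 to 5 with 1 library left out) and 4 lower. Its collagen chains Col4a1 and Col4a2 rose by 2.89 and 3.83, with Col4a1 at 13.9 and 19.8 and then 151 and 99.5 CPM, and the linker Nid1 fell from 276 and 304 to 32.5 and 24.4 (log2 fold change -3.35 with SE 0.31, edgeR adjusted p = 0.000452).

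Imprinted genes were higher in 9 of 16 and lower in 2 (median log2 fold change 0.79). Igf2, the fetal growth factor, rose from 6.96 and 7.25 to 84.1 and 50.8 CPM (log2 fold change 3.24 with SE 0.32, edgeR adjusted p = 0.000635), and Cdkn1c from 11.2 and 9.31 to 63.5 and 74.4 (log2 fold change 2.75 with SE 0.12, edgeR adjusted p = 4.23e-06). Peg3, a paternally expressed zinc finger gene, rose from 164 and 152 to 613 and 598 CPM (log2 fold change 1.94 with SE 0.08, edgeR adjusted p = 3.15e-06). Plagl1 and Slc38a4 fell by 1.49 and 0.75. Meg3 and Rian were not called, and their 2 clones stood apart on both days, as given above.

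The bar chart of calls by list sets these groups side by side with all genes tested. In the full fit, naive pluripotency, the respiratory chain and p53 targets have the largest shares of members called lower. Streak, formative epiblast and Wnt ligand genes have the largest shares called higher. With a library left out, p53 targets and Wnt ligands are not always among these. The lists were written with earlier results of these data known, so their shares describe them and are no independent evidence of direction.

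**Figure D4:**
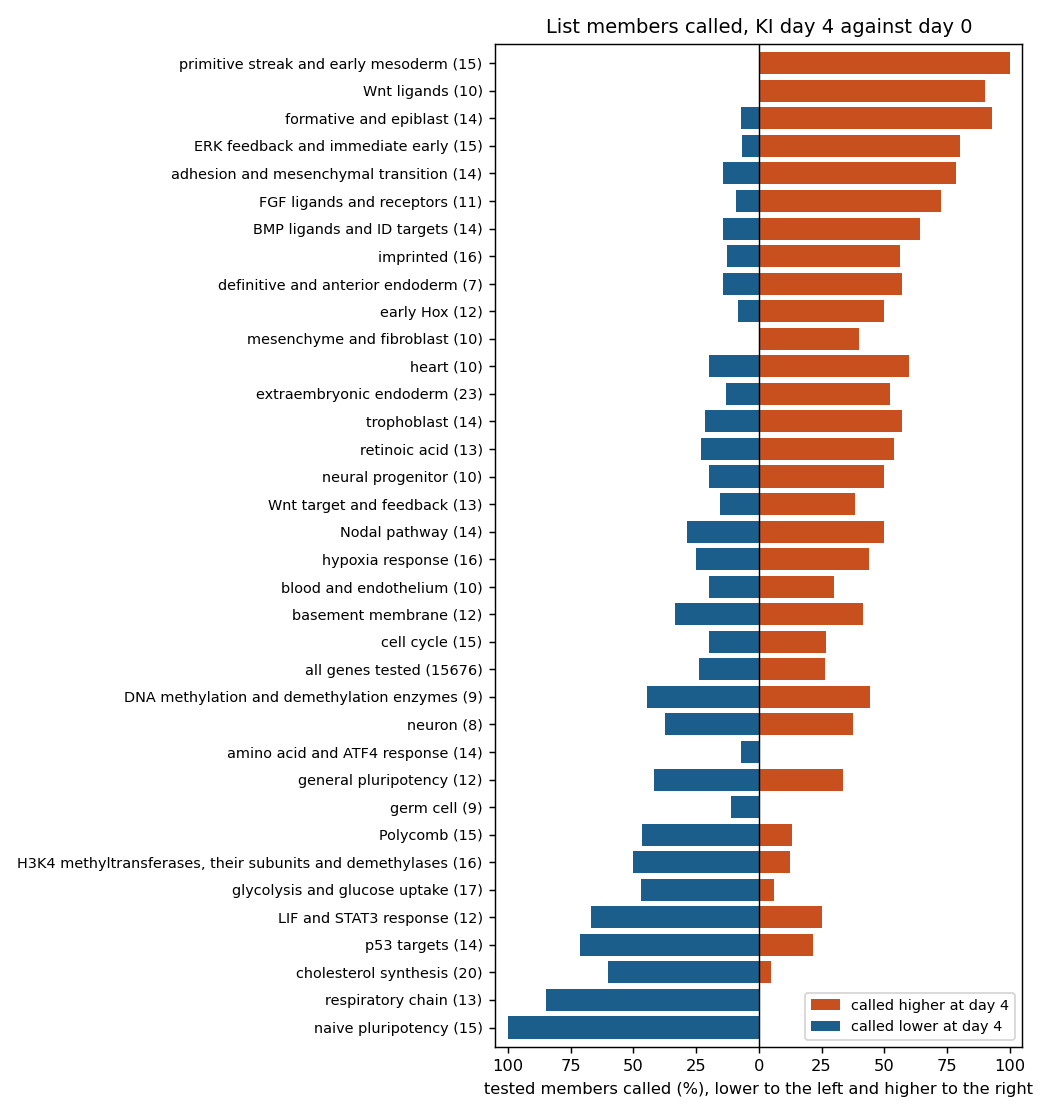
Share (%) of tested members of each list called higher (right) or lower (left) at day 4 against day 0 in KI cells, with the number tested in brackets. All 15 streak genes are called higher and all 15 naive genes lower, against 26.5% higher and 23.8% lower over all 15676 genes.

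The largest fold changes outside the lists involved both cytoskeletal and signalling genes. Cnn1, calponin of smooth muscle, had 1 read over both day 0 libraries and 1762 at day 4 (39.7 and 39.6 CPM), a ratio of 1780 (95% counting interval 318 to 70200). Frzb, a secreted Wnt antagonist, had 1 read and then 743, a ratio of 749 (95% counting interval 134 to 29600). Cnr1, a cannabinoid receptor, and Usp18, an enzyme that removes ISG15 from proteins, had no read at day 0 and were at least 100.0-fold and at least 82.0-fold higher at day 4 than the 3-read limit over both libraries. Pcdh7, a protocadherin, rose from 0.357 and 0.313 CPM, at most 8 reads in a library, to 97.8 and 106 CPM (log2 fold change 8.23, edgeR adjusted p = 4.53e-07). Cav1, Gbp3 and Grm6 complete the top 12 with Fgf5, Fgf8, Lhx1 and Cyp26a1.

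At the other end, Crxos, a homeobox gene of preimplantation embryos, fell from 20.8 and 19.3 to 0.27 and 0.18 CPM (log2 fold change -6.44 with SE 0.27, edgeR adjusted p = 3.39e-06). Gpx2, a glutathione peroxidase, fell from 119 and 108 to 1.53 and 1.53 CPM (log2 fold change -6.20 with SE 0.13, edgeR adjusted p = 5.52e-07), although reads can be shared with its pseudogene Gpx2-ps1, which fell alike. Hoxc12, of the same Hox cluster as Hoxc4, fell from 8.17 and 8.96 to 0.135 and 0.0451 CPM (log2 fold change -6.49). Spic, an ETS factor, had 258 reads at day 0 and 3 at day 4, a ratio of 85.3 between day 0 and day 4 (95% counting interval 28.9 to 417). Hal, Saa3, Slfn8, Ppp1r14d, Tbx18, Nccrp1 and Lrriq4 were the others of the 12 with the largest falls, and Saa3 lost its call in 3 of the 4 fits with 1 library left out.

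Among genes called at 2-fold or more, the largest rise in CPM was that of Flna, filamin A, a crosslinker of actin, from 689 and 644 to 2030 and 1770 CPM (log2 fold change 1.51 with SE 0.08, edgeR adjusted p = 9.32e-06). The non-muscle myosins Myh9 and Myh10 also rose, Myh10 from 68.5 and 69.6 to 484 and 478 CPM (log2 fold change 2.80 with SE 0.07, edgeR adjusted p = 8.30e-07). Amot, a Hippo pathway scaffold, rose from 10.0 and 6.99 to 505 and 468 CPM (log2 fold change 5.84 with SE 0.20, edgeR adjusted p = 3.17e-06). The largest fall in CPM among such genes was that of the chaperone Hsp90aa1, from 5180 and 5490 to 2440 and 2670 CPM (log2 fold change -1.06 with SE 0.09, edgeR adjusted p = 7.17e-05). Scd2, a fatty acid desaturase, fell by 1.11, Dppa5a by 2.46 and Mybl2, a cell cycle transcription factor, by 1.88.

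The flox libraries moved largely in the same direction. Of 3502 genes called at 2-fold in KI and with a flox level over 1 CPM summed over both days, 3379 (96.5%) had the same sign in flox and 2869 (81.9%) were 2-fold there the same way. A test of the difference, the KI change minus the flox change, called 1137 of 16567 genes (6.86%), with 512 higher and 625 lower in KI. Since flox has 1 library per day, its spread is assumed to be that of the KI libraries. The number called was 108 to 406 when 1 of the 4 KI libraries was left out (276 without clone 27 and 406 without clone 48 of day 0, 161 without clone 27 and 108 without clone 48 of day 4), so the genes named next with a call are, unless stated, those called each time.

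Naive genes fell in flox with a median log2 ratio of -4.49, against -3.14 and -3.25 in clones 27 and 48, and the difference was called in 6 of the 15, each a smaller fall in KI. Tcl1, a coactivator of AKT kinase, fell from 89.3 to 0.596 CPM in flox and from 27.8 and 30.3 to 2.21 and 1.94 in KI (difference 3.41, edgeR adjusted p = 0.00371). Klf2, Klf4, Nanog, Nr0b1 and Tdh were called in the full fit with differences of 1.03 to 1.63, but not in every fit with a library left out. Lefty2 stood at 846 CPM in flox stem cells and 145 at day 4, so that it fell there and rose in KI (difference 3.35, edgeR adjusted p = 0.00274). Gdf3, a Nodal-related ligand, fell by less in KI (difference 1.51, edgeR adjusted p = 0.004).

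Some mesoderm, endoderm and epithelial genes rose more in flox. Snai1 went from 6.00 to 57.4 CPM in flox (difference -2.23, edgeR adjusted p = 0.00339) and Krt19 from 0.66 to 238 (difference -3.86, edgeR adjusted p = 0.00312). Runx1 went from 0.36 to 14.2 CPM in flox (difference -3.13, edgeR adjusted p = 0.00394), and Aldh1a2 from 2.52 to 33.2 (difference -3.96, edgeR adjusted p = 0.00274). Wnt8a, a streak ligand, went from 0.18 to 28.3 CPM in flox, where KI cells had it on both days (difference -7.29, edgeR adjusted p = 0.00253). Several genes with wide gaps at day 4 missed the test. Kdr was at 212 CPM in flox against 24.2 and 19.9 in KI (difference -1.93, edgeR adjusted p = 0.106), and Hand1 at 69.3 against 2.43 and 2.84 (difference -5.43, edgeR adjusted p = 0.0545; with the clone as a block, adjusted p = 0.0365). The change of T was not called in this test (difference 0.09, edgeR adjusted p = 0.985).

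In some imprinted genes the stem cell levels differed. Peg10 had 13.4 CPM in flox stem cells against 552 and 370 in KI, and 930 against 611 and 524 at day 4, so that a rise in flox had no called counterpart in KI (difference -5.82, edgeR adjusted p = 0.00253). Slc38a4, an amino acid transporter, had 33.2 and then 141 CPM in flox and fell in KI from 261 and 239 to 163 and 135 (difference -2.84, edgeR adjusted p = 0.00201). Peg3 and Mest rose more in flox (differences -1.40 and -1.62, edgeR adjusted p = 0.00346 and 0.00332). The median log2 ratio of the list was 2.07 in flox and 0.79 and 0.70 in clones 27 and 48.

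**Figure D5:**
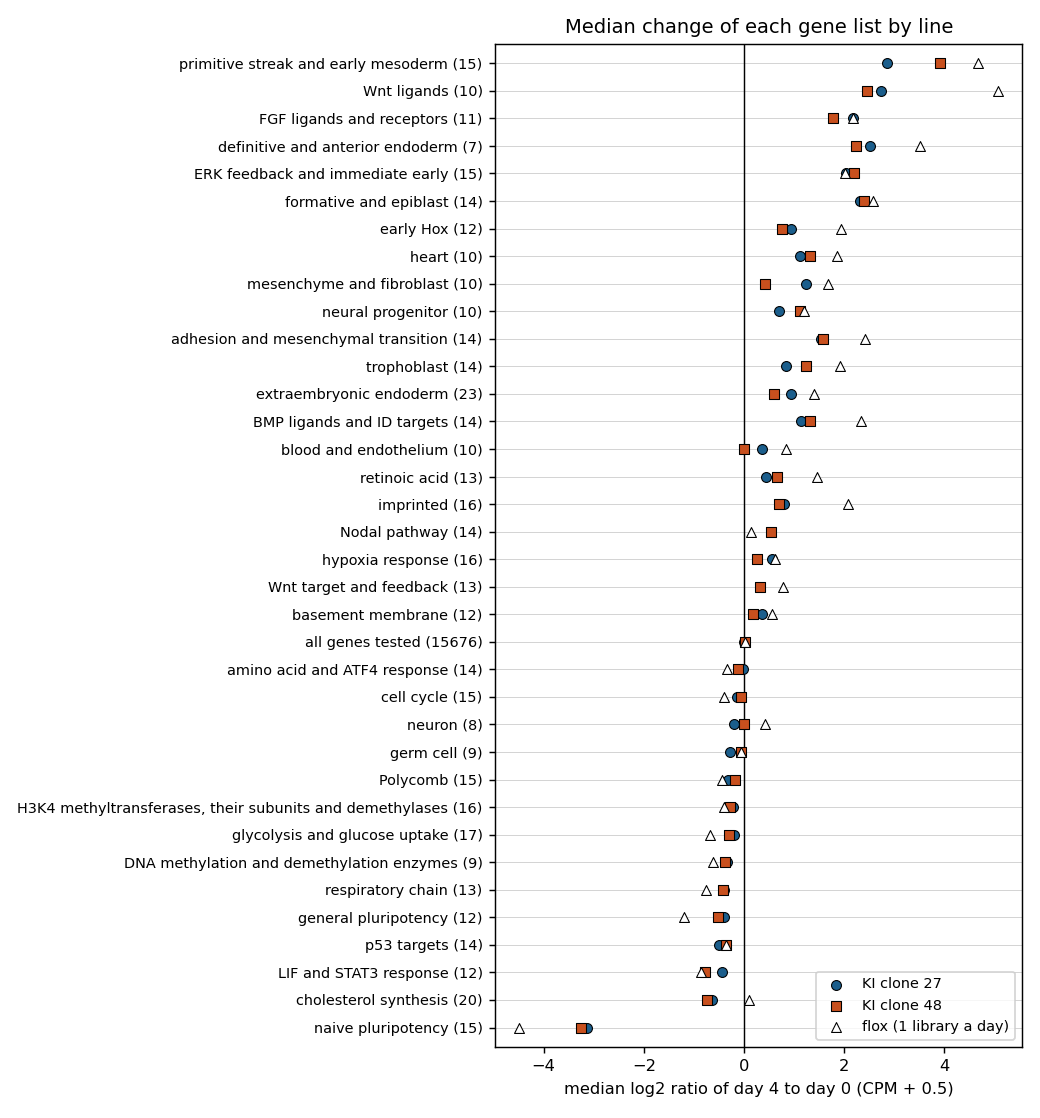
Median log2 ratio of day 4 to day 0 (CPM + 0.5) over the tested members of each list in KI clone 27, KI clone 48 and flox, the number tested in brackets. The clones lie close together for most lists, flox lies further from 0 for naive pluripotency (-4.49) and Wnt ligands (5.08), and cholesterol synthesis is at -0.64 and -0.74 in the clones and 0.09 in flox.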

How the data were processed

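Per the labels' protocols, libraries were prepared from poly(A) RNA with NEBNext reagents, and bcl2fastq, STAR, Bowtie2, SICER 1.1 and the mm9 build are named, without their roles, in the submitters' processing notes. The deposited tables list 29082 RefSeq transcripts with a whole-number read count and an RPKM, per the file headers. The counter and its use of strand are not given in the sources used here. The RPKM values deposited by the authors equal the count over 1 length per transcript and 1 denominator per library (largest relative deviation 5.9e-12) and entered no test.

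The transcript with the most reads over all libraries stood for a gene (23109 entries). A total of 28436 transcripts matched a symbol and 646 did not, and the unmatched held 1.27% to 1.31% of the reads of the 4 KI libraries. The 6 KI libraries of days 0, 4 and 10 were fitted with edgeR 4.0.16 in R 4.3.3 (filterByExpr with a minimum of 10 reads, TMM, robust quasi-likelihood), with the contrast day 4 minus day 0. A 9-library fit with flox tested the difference of changes. Each SE was taken as the size of the log2 fold change over the square root of F, so with few reads on 1 day it can lie below counting error. Per-library CPM was TMM-scaled over 9 libraries, and log2 ratios per line had 0.5 CPM added. The fit was tested on simulated data. DESeq2 1.42.0 was an alternative.

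Same-numbered libraries come from the same clone, which pairs them: the clone difference correlated between days at 0.361, 0.136 and 0.13.

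Genes were named by these rules: the 12 highest and 12 lowest called fold changes with at least 5 CPM and 2-fold in both clones, the 8 largest rises and falls in CPM among genes called at 2-fold, up to 5 called members per list and direction, members not called and the defining member of a list, 8 differences from flox each way, Kmt2c and Kmt2d, and the 6 largest gaps between the changes of the clones. Genes 4-fold apart between clones on both days were named after their values were seen. Members and lists were chosen with earlier results of these data known. A fold for a gene with no read in a group uses a floor of 3 reads over the group. Other assays were not analysed here.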

Additional observations from a re-analysis of the deposited data

Results flagged for a closer look

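The change from day 0 to day 4 differed between KI and flox by a test of the difference itself in 1137 genes. Among the genes with the largest differences (KI change minus flox change, log2 scale, edgeR adjusted p under 0.05), 8 were higher in KI: Msc 5.54, Mcf2 5.08, Vax2 4.95, Krt42 4.15, Pou4f2 4.07, Cobl 4.06, Pdzd4 4.05 and Fgf17 3.86. All 8 started higher in flox stem cells than in KI stem cells. Cobl, an actin nucleator, had 212 CPM there against 8.03 and 6.49 in KI, and Mcf2 93.2 against 3.39 and 2.91. Of the 8, Mcf2, Cobl and Pdzd4 were called without each of the 4 KI libraries in turn. With the clone as a block, Msc (adjusted p = 0.0542) and, among the genes below, Shisa6 (adjusted p = 0.0628) lost their calls.

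The 8 with the lowest differences were Gfra3 -10.07, Alox15 -9.66, Fads3 -8.13, Foxb1 -8.03, Prnd -7.98, Shisa6 -7.44, Wnt8a -7.29 and Stxbp6 -7.23. Of these, 7 had no read in the flox stem cell library, so the fitted size depends on the prior count and is no bound, and the exception was Wnt8a at 0.18 CPM. Alox15, a lipoxygenase, reached 24.7 CPM in flox at day 4 against 0.675 and 0.586 in KI. Wnt8a was the member of the 8 called without each KI library in turn. The flox change rests on 1 library per day.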

How the results depend on the processing

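All 15 naive genes and 14 streak genes kept their direction under the alternatives run for single genes, and so did Foxf1 in those that gave it a value, which the fit of only the 4 libraries did not. Of the gene-level fold changes recomputed, 3920 stayed on the same side of the threshold, 273 lost and 87 gained a call. Leaving out each of the 4 libraries in turn gave 4982 to 5398 called genes (7882 in full), 3227 to 3402 at 2-fold (4010 in full) and 108 to 406 called differences from flox (1137 in full), with fewer samples in each fit. The 4982 called without clone 27 of day 4 and 5046 without clone 48 of day 4 were the lowest. Only the 6 libraries of days 0 and 4 gave 4389 differences, and the 4 KI libraries alone gave 9788 called genes. Both settings drop day 10, where the clones lay furthest apart (chi-square per degree of freedom 41.68), and also change the genes tested and the residual degrees of freedom, and the cause was not tested. The median of the amino acid and ATF4 list ranged from -0.15 to 0.01 with 1 library left out (-0.08 in full); the 0.01, without clone 48 of day 0, has the opposite sign, and the cause was not tested.

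With the clone as a replicate block, 7766 genes were called, 4012 at 2-fold, and 1019 differences from flox. Among list and named genes, the block added 11 calls and removed 2 (13 and 12 for the differences). A block over the 4 libraries alone, chosen after seeing the data, gave 10200. DESeq2 called 7392 genes and 1461 differences.

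At this depth, genes near 3 reads (0.134 to 0.135 CPM) cannot be ranked between days.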
